A study of Sus scrofa with 6 samples.

Results

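The change in open chromatin from somite to myotome was followed in pig embryos by comparing embryonic day 28 (E28) with embryonic day 21 (E21). The libraries labelled E28 (ZZ and DZ) and E21 (ZZ and DZ) were taken, 4 of the 6 in the series. The other 2 were E18 somite libraries, whose levels are given only as a reference. Each library was a single-cell ATAC-seq experiment, in which the transposase Tn5 cuts DNA where chromatin is open and every fragment carries the barcode of 1 droplet. At E21 the tissue was somite and at E28 it was myotome. ZZ embryos were Tibetan pigs and DZ embryos came from Duroc and Tibetan parents (DurocxTibetan in the labels). A library pooled 5 embryos of 1 sow and no agent or genetic change was applied. There was 1 library for each stage and breed, so every p-value below rests on few libraries, with breed as the pair. The spread behind it was estimated partly or wholly from all regions or windows together, and not from the single region or window alone. Tissue changes with stage in this comparison, so the effects of age and of tissue cannot be told apart. Counts were summed over all cells of a library, so fewer cells of a type and less open chromatin per cell cannot be told apart either.

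Somites are blocks of mesoderm that form in sequence along the neural tube. Their ventral part, the sclerotome, gives cartilage and bone of the axial skeleton, and their dorsal part, the dermomyotome, gives the myotome, in which PAX3- and PAX7-positive progenitors activate the muscle-determination factors MYF5, MYOD1, MYF6 and MYOG. These 4 proteins bind the E-box, a short DNA element with the letters CANNTG, often in enhancers that lie outside promoters. Myocytes then switch on contractile proteins and the receptors of the neuromuscular junction, while connective tissue and tendon cells assemble around them.

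Between 9286 and 9450 barcodes per library passed the limits of 2000 to 30000 counts, and the summed counts were 109989839 in E21 ZZ, 106665140 in E21 DZ, 89816504 in E28 ZZ and 98654857 in E28 DZ. Pairs of libraries shared 113 to 135 barcodes, at most 1.43% of the smaller library. Peaks had been called in each library separately, and both E28 libraries had fewer (131975 in ZZ and 137769 in DZ) than both E21 libraries (171898 in ZZ and 188857 in DZ). The 630499 peaks of the 4 libraries merged into 228884 regions. All 4 libraries had a peak in 92545 of them (40.4%), and these contained 89.6% to 95.2% of a library's counts. A count exists only where a peak was called, so a longer called peak collects more counts. For this reason the 43582 regions whose called length lay within 1.5 times across the 4 libraries, hereafter regions of matched length, carry the description of gene groups. Levels are CPM, the counts in a region scaled to the total counts in peaks of the library.

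The elements that carry the description are shown first, as the central 300 bases of each region on the plus strand of Sscrofa11.1. Among regions of matched length, that with the largest rise lies in an intron of NFIA, which encodes a transcription factor of the nuclear factor I family (chr6:151118993-151119292). It held none of the motifs searched.
NFIA: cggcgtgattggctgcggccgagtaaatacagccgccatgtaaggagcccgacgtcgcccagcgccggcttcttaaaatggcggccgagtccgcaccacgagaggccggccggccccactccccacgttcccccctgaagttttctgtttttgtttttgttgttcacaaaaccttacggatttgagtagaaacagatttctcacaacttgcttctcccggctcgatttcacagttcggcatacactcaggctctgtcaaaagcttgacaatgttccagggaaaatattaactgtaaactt

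5 elements at muscle genes that rose at E28 follow, chosen from those with at least 1 CAGCTG E-box. In the muscle lists described below, 10 of the 23 higher regions held CAGCTG. Regions with larger rises at MYOM1 (log2 change 1.84) and TNNC2 (1.62) held none and are not printed. Capitals mark the E-box CAGCTG and, on either strand, TGATNNAT (HOX-PBX), TGACTCA (AP-1), ACATTCC (TEAD) and CTAAAAATA (MEF2). The MYF6 element (chr5:100772876-100773175) lies upstream of the gene and the MYOD1 element (chr2:41489344-41489643) lies far upstream of the gene. The MYOM1 element (chr6:103492013-103492312) is intronic, the TNNC2 element (chr17:48027534-48027833) lies just before the gene, and the CHRNA1 element (chr15:80685324-80685623) lies in a region that overlaps coding sequence.
MYF6: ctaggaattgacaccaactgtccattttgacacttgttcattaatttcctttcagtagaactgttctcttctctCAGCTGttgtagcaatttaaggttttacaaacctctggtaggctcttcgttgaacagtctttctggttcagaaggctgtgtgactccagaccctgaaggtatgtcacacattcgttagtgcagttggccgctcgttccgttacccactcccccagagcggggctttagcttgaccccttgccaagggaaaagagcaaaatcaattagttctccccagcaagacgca
MYOD1: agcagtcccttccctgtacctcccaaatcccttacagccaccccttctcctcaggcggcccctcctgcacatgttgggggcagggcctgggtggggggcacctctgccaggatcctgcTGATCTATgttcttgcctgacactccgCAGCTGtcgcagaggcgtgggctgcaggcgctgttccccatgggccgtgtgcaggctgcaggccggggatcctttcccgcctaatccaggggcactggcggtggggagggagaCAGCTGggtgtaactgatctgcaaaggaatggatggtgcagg
MYOM1: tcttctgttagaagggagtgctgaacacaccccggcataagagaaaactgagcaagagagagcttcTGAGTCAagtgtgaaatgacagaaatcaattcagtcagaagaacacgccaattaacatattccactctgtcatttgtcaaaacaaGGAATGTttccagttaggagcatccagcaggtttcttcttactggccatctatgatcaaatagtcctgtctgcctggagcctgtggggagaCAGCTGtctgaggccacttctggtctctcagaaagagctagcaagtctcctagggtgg
TNNC2: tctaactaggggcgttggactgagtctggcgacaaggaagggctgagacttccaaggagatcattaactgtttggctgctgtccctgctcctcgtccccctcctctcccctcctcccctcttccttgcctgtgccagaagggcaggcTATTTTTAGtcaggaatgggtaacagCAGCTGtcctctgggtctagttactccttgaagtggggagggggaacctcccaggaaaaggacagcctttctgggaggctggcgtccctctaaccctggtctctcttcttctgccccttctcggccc
CHRNA1: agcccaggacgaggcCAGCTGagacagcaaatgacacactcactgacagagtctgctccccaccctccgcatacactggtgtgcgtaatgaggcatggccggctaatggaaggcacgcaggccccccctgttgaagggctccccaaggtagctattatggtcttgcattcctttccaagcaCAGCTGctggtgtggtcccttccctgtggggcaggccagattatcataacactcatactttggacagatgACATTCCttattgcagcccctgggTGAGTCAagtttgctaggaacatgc

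2 elements that fell at E28 are shown for contrast. The region of matched length with the largest fall lies in an intron of PLAT, the tissue plasminogen activator (chr17:11214845-11215144), and held none of the motifs. The other lies in an intron of SOX5, a SoxD transcription factor of early cartilage (chr5:50072485-50072784), with CAGCTG and the GATA factor motif AGATAA in capitals.
PLAT: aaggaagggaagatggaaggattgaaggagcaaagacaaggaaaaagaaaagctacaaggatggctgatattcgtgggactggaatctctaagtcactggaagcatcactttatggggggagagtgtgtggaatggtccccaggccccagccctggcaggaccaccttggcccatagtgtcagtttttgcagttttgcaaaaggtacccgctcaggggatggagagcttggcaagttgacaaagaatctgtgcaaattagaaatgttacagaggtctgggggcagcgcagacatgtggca
SOX5: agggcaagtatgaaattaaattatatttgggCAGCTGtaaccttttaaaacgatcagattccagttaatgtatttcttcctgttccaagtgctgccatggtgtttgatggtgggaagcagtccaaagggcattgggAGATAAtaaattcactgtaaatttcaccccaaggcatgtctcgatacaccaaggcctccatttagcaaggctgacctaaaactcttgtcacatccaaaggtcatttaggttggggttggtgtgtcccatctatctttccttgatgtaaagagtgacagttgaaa

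Regions were called in both directions, and their balance depended on the regions and libraries tested. Among all 92530 regions tested with edgeR's quasi-likelihood test (stage and breed as terms), 4353 (4.70%) passed an adjusted p of 0.05, with 2630 higher (2.84%) and 1723 lower (1.86%) at E28. The split was 1880 higher and 3035 lower without E28 DZ, 7794 and 8341 without E28 ZZ, and 6727 and 6527 with DESeq2. The change of called length moved with these calls, since the log2 fold change correlated with the log2 ratio of called length across 92126 regions (Pearson r 0.893, a description over regions of the same libraries), and 2413 of the higher regions had longer called peaks at E28 in both breeds. Regions of matched length made up 738 of the calls in that test, 650 higher and 88 lower. Tested alone they gave 5546 calls of 43582 (12.7%), 3435 higher (7.88%) and 2111 lower (4.84%). Their log2 changes were lower by a median of 0.14 when tested alone. Here higher calls outnumbered lower ones in each refit that called any, by 1231 to 791 when called lengths lay within 1.2 times and by 4295 to 3374 without E28 ZZ. Within regions of matched length the correlation with called length was still 0.736. The 5546 called regions had a median absolute change of 0.99 on the log2 scale, and 2629 of them changed by more than 2-fold.

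The breeds moved together in most called regions. Of the 5546 regions of matched length that were called, 5417 went in the same direction in ZZ and in DZ, which the choice of called regions favours. Over all 43582 regions, called or not, the ZZ and DZ changes correlated with r 0.511 (Spearman rho 0.467), a description in which each breed contributed its own 2 libraries. The plot of the change in each breed shows this cloud.

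**Figure D1:**
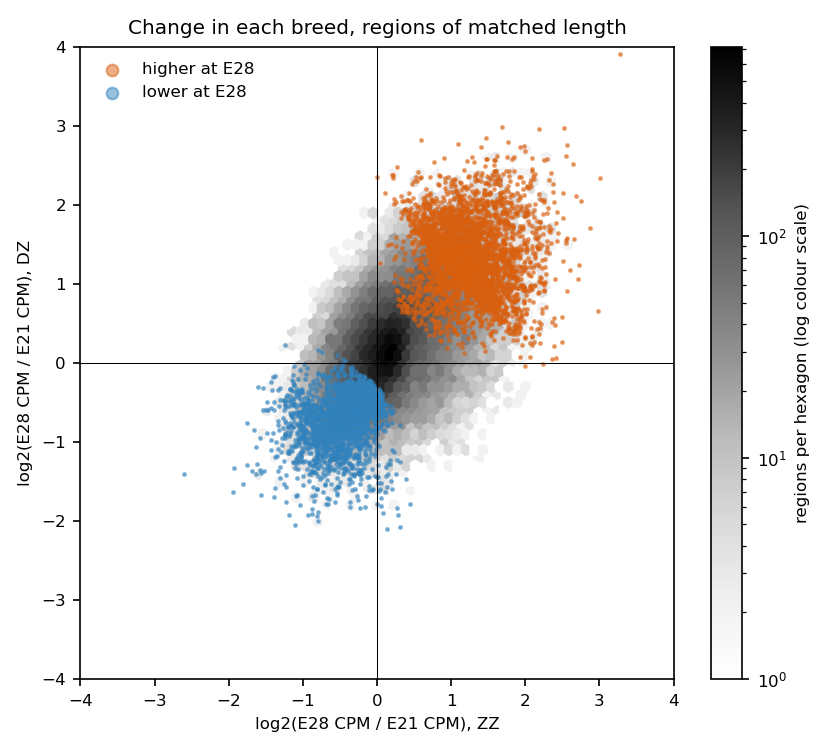
Change from E21 to E28 in each breed over 43582 regions of matched length, as log2 of the ratio of CPM, for ZZ (horizontal axis) and DZ (vertical axis). Grey hexagons count regions on a log colour scale, orange points are the 3435 regions higher at E28 and blue points the 2111 lower; 5417 of the 5546 called regions moved in the same direction in both breeds.

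The number of calls depended strongly on single libraries and on the fit. In the test of matched regions alone the estimated spread was taken from the trend over all regions and not from the region itself, and 1 residual degree of freedom remained. Without the E21 ZZ library 324 of these regions were called, without E21 DZ 1180, without E28 DZ 2367 and without E28 ZZ 7669. With all 6 libraries in the fit edgeR called 0, with 8766 at an unadjusted p under 0.05, while DESeq2 on the 4 libraries called 3581. The direction of the 5546 called regions was the same in 5538 to 5546 of them in each of these fits. These regions were chosen by their change in the same libraries, so this agreement was largely set by that choice.

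The 10 regions of matched length with the largest rise had low counts at E21 and were almost closed in the E18 libraries. The NFIA intron rose most. Its level was 2.65 CPM in E21 ZZ, 2.49 in E21 DZ, 25.6 in E28 ZZ and 37.4 in E28 DZ, against 0.308 and 0 CPM in the E18 libraries. The stages did not overlap, which the choice of the largest called changes favours. The change was 3.55 ± 0.26 (log2 ± SE, 11.7-fold) with an edgeR adjusted p of 0.0291 over all regions. The NFIA gene window as a whole (gene body plus 2 kb upstream) did not pass (0.09 ± 0.09, edgeR adjusted p = 0.559). The second was an intron shared by TIMP3, an inhibitor of matrix metalloproteinases, and SYN3, with 3.20 and 2.61 CPM at E21 (ZZ, DZ) and 18.3 and 20.5 CPM at E28 (log2 change 2.71 ± 0.29). A region 56.7 kb before ANGPTL1, which encodes a secreted angiopoietin-like protein, went from 2.77 and 5.06 CPM to 22.2 and 25.7 CPM (2.64 ± 0.27). It overlapped no peak in either E18 library. A coding exon of NLN, the peptidase neurolysin, went from 3.47 and 5.57 CPM to 20.5 and 37.8 CPM (2.63 ± 0.22). On the log2 scale all 4 of these regions separated the stages by more than the gap between the breeds.

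Other large rises were in introns of DOCK8 and PLEKHG1, both activators of small GTPases, and of MAGI2, a junction scaffold. Their log2 changes were 2.55 ± 0.31, 2.38 ± 0.21 and 2.54 ± 0.35. A region 12.2 kb before SELENON, whose loss causes a congenital myopathy, rose from 1.60 and 2.28 CPM to 10.3 and 9.87 CPM (2.37 ± 0.36). The remaining 2 lay before DIRC1 (2.41 ± 0.27) and 93.2 kb before MIR9787 (2.34 ± 0.23). Across the 10 risers the E18 level was between 0 and 1.36 CPM, although E18 called lengths were not matched.

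The 10 regions of matched length with the largest fall were already open at E18 and E21. The PLAT intron fell from 22.2 CPM in E21 ZZ and 15.6 in E21 DZ to 3.64 in E28 ZZ and 5.92 in E28 DZ (log2 change -2.03 ± 0.36, edgeR adjusted p = 0.0390). Its E18 levels were 29.4 and 35.6 CPM, above both E21 libraries. A region over the start of EDNRB, the endothelin receptor of neural crest derivatives, fell from 31.4 and 26.6 CPM to 12.7 and 9.68 CPM (-1.42 ± 0.18). A region 84.7 kb before SOX13, a SoxD factor, fell from 26.8 and 18.2 CPM to 9.07 and 5.73 CPM (-1.65 ± 0.22). The stages did not overlap in any of these 3 regions, which their choice as the largest called falls favours. Introns of AGO1 (an Argonaute protein of small RNA silencing), MTUS1, FBN2 (fibrillin-2 of microfibrils) and TLE4 (a Groucho-type corepressor) fell by 1.66, 1.55, 1.48 and 1.45 on the log2 scale. The others were a coding exon of ANO1, a calcium-activated chloride channel (-1.52 ± 0.29), and regions near ANKRD50 (-1.82 ± 0.36) and SNTN (-1.50 ± 0.29). All 20 regions kept their direction under every alternative run, which their choice for large changes of the same sign in both breeds favours. All 20 fell short of the threshold without E21 ZZ, without E21 DZ, without the breed term and with all 6 libraries. The same held when a peak was required only in both libraries of 1 stage, and 1 region fell short without E28 DZ.

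**Figure D2:**
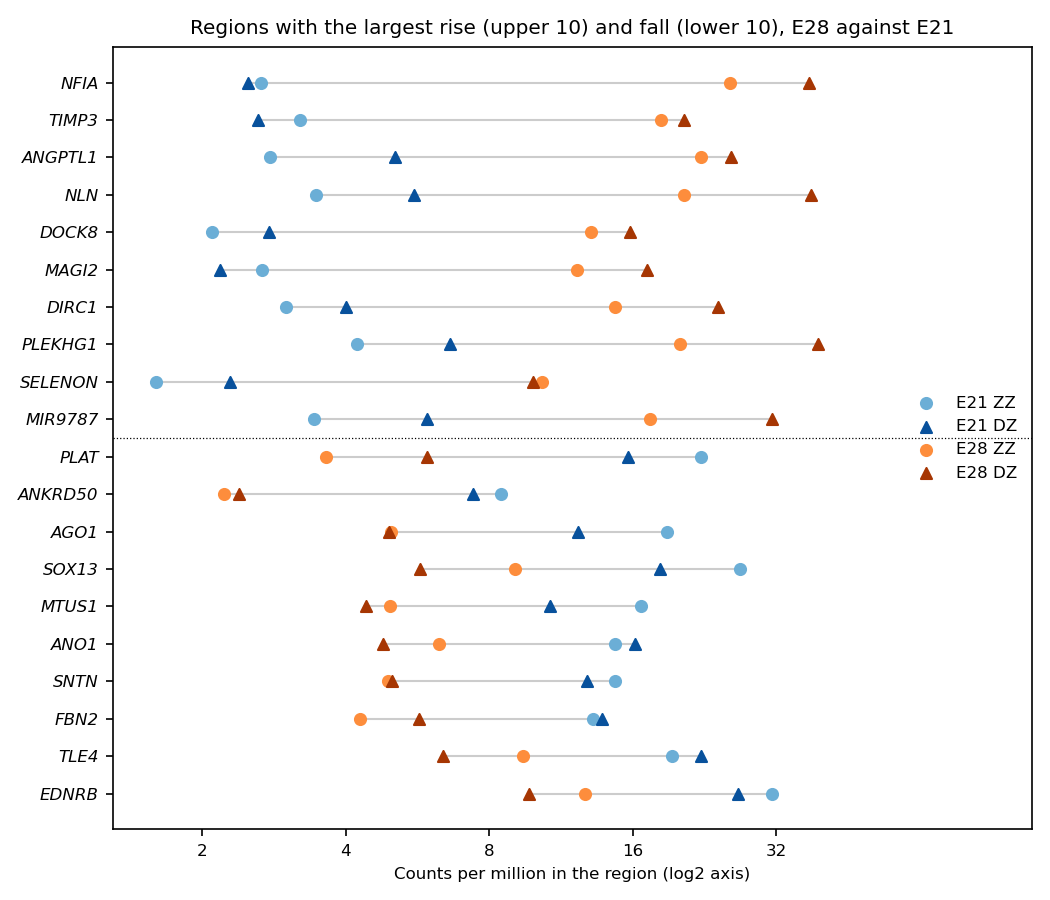
Level of the 10 regions with the largest rise and the 10 with the largest fall at E28, in CPM on a log2 axis, 1 point for each of the 4 libraries (circles ZZ, triangles DZ; blue E21, orange E28), each row named for the gene the region was assigned to. The 2 stages do not overlap in any row, which the choice of regions favours. The NFIA region moved from 2.49 to 2.65 CPM at E21 to 25.6 to 37.4 CPM at E28.

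Among regions of matched length, sarcomere and junction genes had a larger share of higher regions than all regions did, and myogenic regulators had not. The lists of myogenic regulators, of sarcomere and contraction genes, and of fusion and neuromuscular junction genes had 160 regions of matched length within or near their genes, and 23 (14.4%) were higher at E28 against 7.88% of all such regions. 6 (3.75%) were lower, against 4.84%. The gains were not evenly spread. Sarcomere genes had 12 higher and 1 lower of 50 (median log2 change 0.30, against 0.00 over all regions of matched length), fusion and junction genes 7 higher and 1 lower of 26 (median 0.27), and myogenic regulators 4 higher and 4 lower of 84 (median 0.01), no more than the background. Without E21 ZZ, E21 DZ or E28 DZ fewer sarcomere and junction regions were higher past the threshold, as were fewer of all regions. The sarcomere median was 0.4 without E21 ZZ, 0.25 without E21 DZ, 0.19 without E28 DZ and 0.45 without E28 ZZ. The junction median was 0.22, 0.27, 0.19 and 0.27 in the same order, and that of all regions was at most 0.02. At called lengths within 1.2 times the sarcomere list had 6 higher and 0 lower of 19 (median 0.36), while the junction list had 1 higher and 1 lower of 8 and its median turned to -0.16. The regulator list then had 1 higher and 0 lower of 34, and all regions 1231 higher and 791 lower of 18643. All 3 lists had no call with 6 libraries.

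MYOM1, which encodes the M-band protein myomesin 1, had 3 higher regions. An intronic one went from 9.59 CPM in E21 ZZ and 11 in E21 DZ to 28.7 in E28 ZZ and 59.9 in E28 DZ (log2 change 1.84 ± 0.17, edgeR adjusted p = 1.14e-22 among regions of matched length). The intronic element printed above went from 1.04 and 1.08 CPM to 3.28 and 5.33 CPM (1.81 ± 0.34), and had no peak in either E18 library. The third lay over the MYOM1 start (1.0 ± 0.33). All 3 were higher in both E28 libraries than in both E21 libraries, which their choice as called regions favours. TNNC2, the calcium-binding troponin C of fast fibres, had 2 higher regions before its start. The nearer one, printed above, rose from 2.27 and 2.33 CPM to 4.46 and 5.35 CPM (0.91 ± 0.33), and the farther one from 4.43 and 3.32 CPM to 12.1 and 14.6 CPM (1.62 ± 0.31). CASQ2, the calcium-binding calsequestrin of the sarcoplasmic reticulum, had 2 intronic gains of 1.54 ± 0.33 and 1.18 ± 0.27. Introns of ACTN2 (alpha-actinin of the Z-disc) and RYR1 (the calcium release channel of skeletal muscle) rose by 1.24 ± 0.34 and 1.02 ± 0.32, and the start of NEB (nebulin of the thin filament) by 0.95 ± 0.30. TNNT3, fast troponin T, had 2 higher regions, of which that over a coding exon separated the DZ libraries little (6.07 CPM at E21, 6.40 at E28) and the ZZ libraries more (4.04 and 16.9 CPM). The only lower region was in an intron of TNNT2, the troponin T of heart and embryonic muscle (19.1 and 10.7 CPM to 9.45 and 8.32 CPM, -0.86 ± 0.26).

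The 7 higher regions of the fusion and junction list belonged to CHRNA1, MUSK and CDH2. The CHRNA1 element, at the gene of the acetylcholine receptor alpha subunit, rose from 3.16 and 4.08 CPM to 7.98 and 16.2 CPM (1.49 ± 0.31), and it had no peak in either E18 library. MUSK, the receptor kinase that clusters these receptors, had 3 higher regions with log2 changes of 1.11 ± 0.33, 0.96 ± 0.32 and 0.82 ± 0.24. In the last of them, 30.9 kb before the gene, E21 DZ (17.2 CPM) was close to E28 DZ (18.3 CPM). CDH2, the N-cadherin of myoblast contacts, had 3 higher intronic regions (0.78 to 1.18) and a lower one over its start (-0.57 ± 0.12).

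Elements of the myogenic regulators went both ways. The MYF6 element, 7.7 kb before the gene, rose from 2.92 and 2.32 CPM to 4.19 and 11.9 CPM (1.27 ± 0.35, edgeR adjusted p = 0.00492), with most of the rise in DZ. The MYOD1 element, 64.8 kb before the gene, rose from 4.32 and 5.79 CPM to 11 and 13.6 CPM (1.12 ± 0.30, edgeR adjusted p = 0.00366). MEOX1, a homeobox factor of somites, had a higher region 18.4 kb beyond its end (6.74 and 7.12 CPM to 16.4 and 20 CPM, 1.22 ± 0.26) and a lower one close to its end (-1.15 ± 0.33). An intron of PAX7, the factor of muscle progenitors, fell from 14.0 and 10.5 CPM to 6.89 and 5.89 CPM (-1.10 ± 0.29). TCF12, an E-protein partner of the muscle-determination factors, had 1 higher and 2 lower regions. Over whole gene windows 0 of 16 regulators passed the edgeR test, against 2.60% of all windows, and 9 of the 16 estimates lay above 0.

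The window of MYOG, the factor of terminal differentiation, stood at 9.78 CPM in E21 ZZ, 11.5 in E21 DZ, 16.8 in E28 ZZ and 23.3 in E28 DZ (log2 change 0.87 ± 0.17, edgeR adjusted p = 0.0707). The window of PAX3, the factor of early progenitors, stood at 125 and 110 CPM at E21 and at 69.3 and 79.7 CPM at E28 (-0.69 ± 0.13, edgeR adjusted p = 0.0684), while its called length went from 27.4 and 25.5 kb to 12.2 and 15.5 kb. Neither window passed the threshold. MYF5 (0.39 ± 0.20, edgeR adjusted p = 0.289), MYOD1 (0.21 ± 0.16, 0.461) and PAX7 (-0.25 ± 0.18, 0.417) did not pass, and PAX7 went down in ZZ (184 to 127 CPM) and slightly up in DZ (log2 ratio 0.10). MEIS1, a homeobox cofactor, had 176 and 166 CPM at E21 and was lower at E28 in both breeds (log2 ratios -0.45 in ZZ and -0.31 in DZ; -0.41 ± 0.10, edgeR adjusted p = 0.102), beside called lengths of 33.5 and 34.6 kb at E21 and 18.0 and 18.6 kb at E28. As a check of the labelled tissue, the summed level of the 16 regulator windows was 1090 CPM in both E21 libraries and 989 and 1130 CPM at E28, and that of the sarcomere windows 727 and 676 CPM against 717 and 837 CPM. These sums, which follow called length, overlapped between somite and myotome libraries. With regions of matched length alone, 3 of 18 sarcomere windows were higher and 0 lower (median 0.31), against 0.836% higher over all such windows. They were MYOM1 (1.66, edgeR adjusted p = 0.0103), CASQ2 (1.28, 0.0272) and TNNT3 (0.97, 0.0371).

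**Figure D3:**
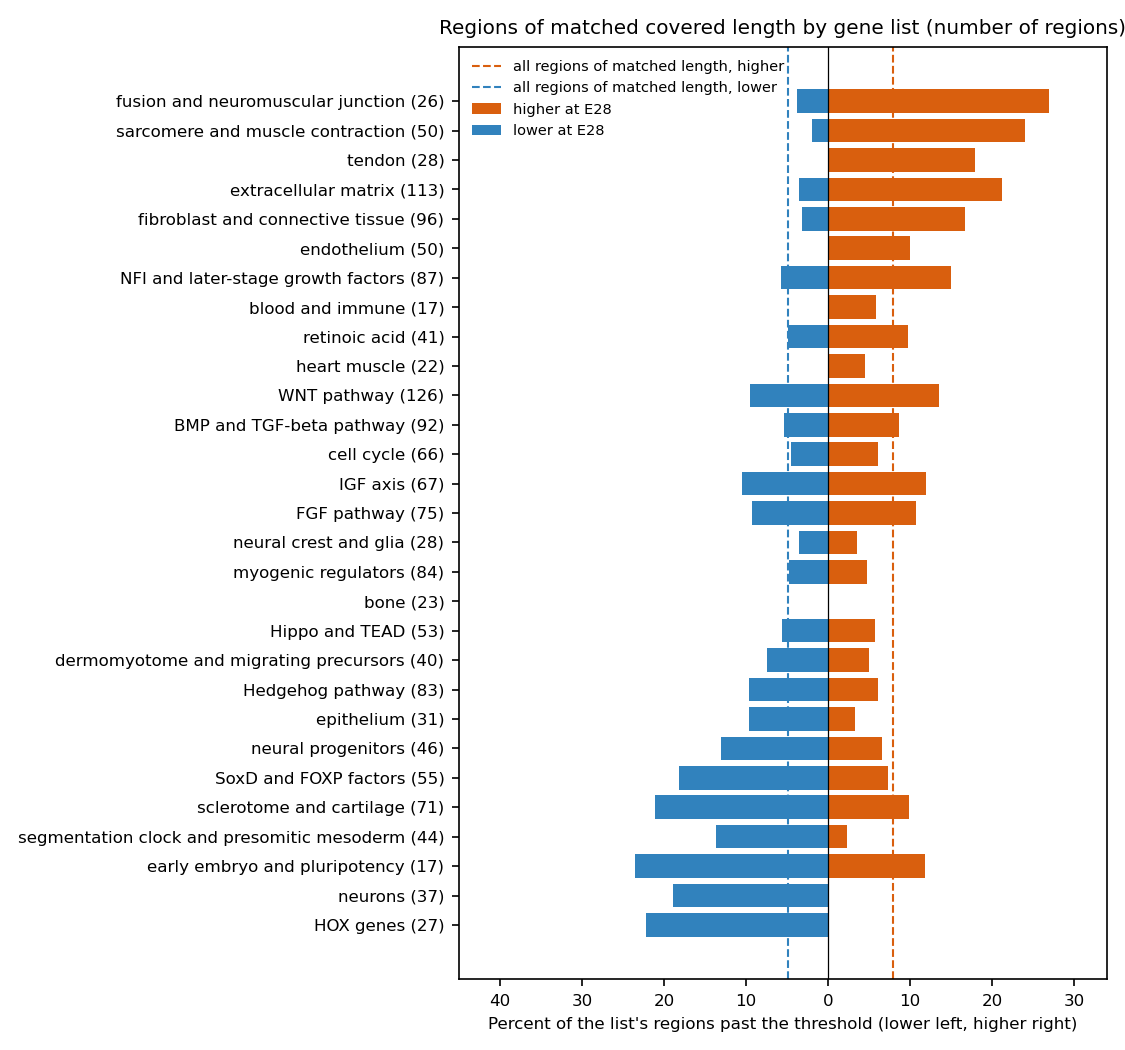
Percentage of each gene list's regions of matched length that were lower (blue, left) or higher (orange, right) at E28, with the number of regions in brackets and dashed lines at the shares of all such regions (4.84% lower, 7.88% higher). Fusion and junction genes (7 of 26) and sarcomere genes (12 of 50) extend farthest to the right, and HOX genes (6 of 27) and neuron genes (7 of 37) have bars to the left alone.

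Connective tissue and matrix genes also had gains. The extracellular matrix list had 24 higher and 4 lower of 113 regions (median 0.20), the fibroblast list 16 higher and 3 lower of 96, and the tendon list 5 higher and 0 lower of 28, against 7.88% higher and 4.84% lower over all regions of matched length. Without E21 ZZ, E21 DZ or E28 DZ fewer regions of these lists were higher past the threshold, as were fewer of all regions. Their medians were 0.19, 0.16 and 0.12 without E21 ZZ, 0.24, 0.2 and 0.21 without E21 DZ, and 0.2, 0.11 and 0.06 without E28 DZ. At called lengths within 1.2 times the higher counts were 4 of 41, 3 of 40 and 3 of 15, beside 1231 of all 18643 regions. A region 48.7 kb beyond POSTN, which encodes the matricellular protein periostin, rose from 8.19 and 9.66 CPM to 33.4 and 35.9 CPM (1.79 ± 0.20). An intron of PRRX1, a homeobox factor of mesenchyme, rose from 5.49 and 7.22 CPM to 18.6 and 19.7 CPM (1.43 ± 0.26). In both, the breeds lay close to each other within a stage. Starts of the collagen genes COL3A1 (0.64 ± 0.16) and COL1A1 (0.37 ± 0.12) and of the proteoglycan genes DCN (0.79 ± 0.29) and LUM (0.61 ± 0.21) rose as well, by less than the POSTN start (1.3 ± 0.33). PDGFRB, a growth factor receptor of mural and connective cells, had 2 lower regions, 1 of them over its start (-0.59 ± 0.12). The fall at the start was in DZ (94.8 CPM at E21, 53.1 at E28), while ZZ stayed level (72.5 and 72.4 CPM).

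Among matrix genes, LAMA2, the laminin chain of muscle basement membrane, had 3 higher regions and 1 lower. The largest of them went from 3.39 and 3.48 CPM to 10.9 and 14.2 CPM (1.68 ± 0.31). LAMB1 and LAMA4, also laminin chains, had intronic or upstream gains of 1.56 ± 0.23 and 1.47 ± 0.26 and each also a lower region. COL14A1, a collagen of fibril surfaces, had 3 higher regions and TNC, the tenascin of tendon and developing muscle, had 2. In the tendon list the higher regions belonged to TGFB2 (1.66 ± 0.34), FMOD, which encodes fibromodulin (1.36 ± 0.20), MKX, the tendon factor Mohawk (1.24 ± 0.28), TNMD, which encodes tenomodulin (1.06 ± 0.33), and EGR1 (0.48 ± 0.11). The EGR1 region spans the whole gene and is also counted in the list of NFI, KLF and AP-1 genes below. The paper describes EGR1 as an immediate-early factor, and the part of tissue dissociation in its rise was not tested. Its called length was 8860 bases in E28 DZ and 6746 in E28 ZZ, against 6483 and 6548 at E21 (ZZ, DZ). The region stood at 109 and 108 CPM at E21 and rose in both breeds (log2 ratios 0.47 in ZZ and 0.84 in DZ), to 194 CPM in E28 DZ. The window of SCX, the early tendon factor scleraxis, went the other way, from 92.7 and 103 CPM to 18.7 and 15.9 CPM (-2.54 ± 0.13, edgeR adjusted p = 0.0106), but its called length went from 9.41 and 9.46 kb to 2.81 and 2.72 kb, and no region of matched length at SCX was called. The fall was -2.63 with regions of matched length alone (edgeR adjusted p = 2.11e-05), where called length inside the window still changed by 3.47 times.

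Cartilage genes had more lower than higher regions. Of 71 regions of the sclerotome and cartilage list 15 were lower and 7 higher (median -0.15). Over all regions of matched length 4.84% were lower and 7.88% higher. Without E21 ZZ, E21 DZ or E28 DZ fewer of the list were lower past the threshold, as were fewer of all regions. The median was -0.1 without E21 ZZ, -0.12 without E21 DZ, -0.15 without E28 DZ and -0.17 without E28 ZZ. At called lengths within 1.2 times 3 were lower and 2 higher of 26, beside 791 and 1231 of all 18643. SOX5 alone contributed 6 of the 15 lower regions, out of 11 of matched length at the gene and 0 higher. The printed SOX5 element fell from 10.1 and 12.8 CPM to 5.6 and 3.81 CPM (-1.47 ± 0.31), while E18 stood at 3.05 and 2.20 CPM, so its level was highest at E21. The other SOX5 regions fell by 0.50 to 1.27 and included the start of the gene (47.2 and 41.0 CPM to 37.6 and 32.8 CPM). Its window fell from 337 and 345 CPM to 207 and 185 CPM (-0.83 ± 0.09, edgeR adjusted p = 0.0316). With called length as an offset in the fit the SOX5 window estimate turned positive, where the median over all windows was 0.33. SOX6, the close relative of SOX5, had 2 higher regions (0.95 ± 0.33 and 0.89 ± 0.32), and its window did not pass (0.03 ± 0.09, edgeR adjusted p = 0.886).

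COL2A1, the main collagen of cartilage, had 3 lower regions of 5. The largest fall lay 23.7 kb before the gene, from 38.4 and 39.5 CPM to 23.5 and 13.7 CPM (-1.29 ± 0.16). Around its start the breeds went opposite ways, up in ZZ and down in DZ (99.6 and 113 CPM at E21, 114 and 72.8 CPM at E28). Of the other matrix genes, MATN4 (-0.61 ± 0.17) and HAPLN1 (-0.38 ± 0.14) had a lower region alone. Higher regions were found at ACAN (1.39 ± 0.33), MATN1 (1.64 ± 0.34), COL11A1 (1.46 ± 0.34) and COL9A1 (1.33 ± 0.33), of which ACAN and COL9A1 also had a lower region. The list of SoxD and FOXP factors, which shares SOX5 and SOX6, had 10 lower and 4 higher of 55. The bone list had 0 calls of 23 by edgeR.

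Neural, HOX, segmentation and early embryonic genes had more lower than higher regions at E28, though most of their regions did not pass. No region of the neuron list was higher and 7 of 37 were lower, and the same was true of HOX genes with 6 of 27 (median -0.06), against 4.84% lower over all regions of matched length. Neural progenitor genes had 6 lower and 3 higher of 46, genes of the segmentation clock and presomitic mesoderm 6 lower and 1 higher of 44, and early embryo genes 4 lower and 2 higher of 17. Without E21 ZZ, E21 DZ or E28 DZ fewer neuron, HOX and segmentation regions were lower past the threshold, as were fewer of all regions. Their medians were -0.2, 0.08 and -0.16 without E21 ZZ, and -0.23, -0.05 and -0.35 without E21 DZ. They were -0.24, -0.12 and -0.27 without E28 DZ, and -0.29, 0.12 and -0.22 without E28 ZZ. Without E28 ZZ each of these lists also had higher regions, and the neural progenitor list had more higher than lower ones. At called lengths within 1.2 times neurons had 2 lower and 1 higher of 13, HOX genes 1 lower of 7 and segmentation genes 1 lower of 13. Neural progenitor genes then had 1 lower and 1 higher of 11, and early embryo genes 0 lower and 1 higher of 4. All regions then had 791 lower and 1231 higher of 18643. The largest fall of a neuron region was at an intron of SYT1, a synaptic vesicle protein (-0.99 ± 0.33). The start of ELAVL4, a neuronal RNA-binding protein, fell from 16.7 and 14.8 CPM to 9.44 and 8.88 CPM (-0.95 ± 0.25), and that of NEUROG2, a neurogenic factor, from 39.7 and 32.7 CPM to 23.7 and 23.2 CPM (-0.79 ± 0.15). The stages did not overlap at either start, which the choice of called regions favours. The start of POU3F2, a factor of neural progenitors, fell from 87.0 and 73.2 CPM to 57.1 and 48.0 CPM (-0.78 ± 0.12).

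As markers of cells outside the muscle lineage, 16 of 18 neuron windows and 16 of 17 neural progenitor windows had estimates below 0, and no marker of these lists that had peaks was at 0 in any library. Their summed levels were 849 and 725 CPM at E21 against 542 and 552 CPM at E28 for neurons, and 939 and 799 CPM against 535 and 660 CPM for neural progenitors. All 13 retinoic acid windows and all 10 early embryo windows also had estimates below 0, while 14 of 18 fibroblast windows lay above 0. The median over all windows was -0.01. In the edgeR test 6 neuron windows and 2 progenitor windows passed, all lower, against 1.99% lower over all windows. Among them were HES5, a Notch effector (82.4 and 79.2 CPM to 7.30 and 6.46 CPM, -3.59 ± 0.14), and ELAVL4 (75.5 and 67.4 CPM to 27.2 and 23.6 CPM, -1.53 ± 0.11). CHAT, GAD2, NEUROG1 and MSI1 also fell, by 3.87, 1.23, 1.27 and 0.70. When windows held only regions of matched length, 0 of 10 neuron windows and 1 of 11 progenitor windows passed, with ELAVL4 at -0.90 (edgeR adjusted p = 0.0588), and with called length as an offset the ELAVL4, CHAT, GAD2 and NEUROG1 estimates were 0.28, 0.02, 0.29 and 0.02, below the median of 0.33 that this offset gave all windows. The part that a different share of neural tissue in the dissected material has in the other results was not tested.

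The 6 lower HOX regions were assigned to genes of the HOXA, HOXB and HOXC clusters. 5 of them were wide (11474 to 36024 bases), and the other, 44.6 kb beyond HOXB1, spanned 2296 bases. The region over HOXA4 and neighbouring HOXA genes went from 268 and 223 CPM to 161 and 200 CPM (-0.63 ± 0.11), and the region over HOXB2 and HOXB3 from 145 and 125 CPM to 104 and 119 CPM (-0.44 ± 0.11). In both, ZZ changed more than DZ. HOX genes pattern the body axis from head to tail. Of 36 HOX windows, 5 passed, all lower (HOXB6, HOXA4, HOXD3, HOXC10 and HOXD8), against 1.99% lower over all windows. Called lengths changed by 7.75 to 22.3 times in the first 4. With regions of matched length alone 4 of 25 HOX windows were lower and 0 higher (median -0.38), against 1.18% lower overall. In these 4, HOXA4, HOXA5, HOXC10 and HOXD8, the called length inside the window still changed by 17.4, 5.26, 7.75 and 2.94 times. In the segmentation list RIPPLY2, a repressor at the somite boundary, fell over its start from 14.3 and 11.5 CPM to 6.94 and 4.80 CPM (-1.33 ± 0.29). HES1, a Notch effector, fell at 2 distant regions (-1.23 ± 0.33 and -0.81 ± 0.16), and the starts of DLL1, a Notch ligand, and TBX6, a presomitic factor, fell by 0.53 and 0.51. TBX6 stood at 70.5 and 63.8 CPM at E18, 35.5 and 28.9 CPM at E21 and 29.3 and 22.0 CPM at E28. SALL4, a pluripotency factor of the early embryo, fell over its start from 39.9 and 32 CPM to 19.8 and 15.1 CPM (-1.22 ± 0.16).

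Signalling pathways had calls in both directions. WNT genes had 17 higher and 12 lower of 126 regions, FGF genes 8 and 7 of 75, BMP and TGF-beta genes 8 and 5 of 92, Hedgehog genes 5 and 8 of 83, IGF genes 8 and 7 of 67, retinoic acid genes 4 and 2 of 41, and Hippo and TEAD genes 3 and 3 of 53, against 7.88% higher and 4.84% lower over all regions of matched length. Without E21 ZZ fewer regions of these lists passed in each direction, as did fewer of all regions, and the WNT median was -0.02. Without E28 ZZ it was -0.09, with as many higher as lower WNT regions. The largest change in these lists was 29 kb before SFRP2, a secreted WNT antagonist, from 7.39 and 9.33 CPM to 38.3 and 44.9 CPM (2.15 ± 0.19). The region over the SFRP2 start moved the other way (69.8 and 57.3 CPM to 54.0 and 44.0 CPM, -0.55 ± 0.12). The distant region was assigned to SFRP2 by its nearest start alone. Further regions assigned to SFRP2 were higher (1.23) and lower (-0.77). An element 62.7 kb before FZD8, a WNT receptor, rose from 8.56 and 11 CPM to 21.5 and 54.1 CPM (1.64 ± 0.19). GDF5, the BMP-family ligand of joints, rose in its window from 10.6 and 12.2 CPM to 30.2 and 33.3 CPM (1.44 ± 0.13, edgeR adjusted p = 0.0277).

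The remaining lists had few calls among regions of matched length. Endothelial genes had 5 higher and 0 lower of 50, dermomyotome genes 2 higher and 3 lower of 40, epithelial genes 1 higher and 3 lower of 31, and cell cycle genes 4 higher and 3 lower of 66. At called lengths within 1.2 times endothelial genes had 0 higher and 1 lower of 19. Neural crest genes had 1 higher and 1 lower of 28, heart genes 1 higher of 22, and blood and immune genes 1 higher of 17. All regions of matched length had 7.88% higher and 4.84% lower. Summed window levels were 748 and 790 CPM at E21 against 731 and 673 CPM at E28 for endothelium, 343 and 346 CPM against 395 and 388 CPM for blood and immune genes, and 331 and 307 CPM against 264 and 250 CPM for epithelium. Their part in the results was not tested.

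Calls among whole gene windows also depended on called length. Of 21795 windows 566 (2.60%) passed, of which 433 were lower (1.99%) and the rest higher (0.610%), and when the windows held only regions of matched length 350 of 17336 (2.02%) passed, 145 higher (0.836%) and 205 lower (1.18%). A wide region can be called as several peaks, and only those that overlap a window were counted there, so called length inside the window still changed by more than 1.5 times in 96 of these 350. The other calls were 137 higher and 117 lower. The 10779 windows whose whole called length was matched had 50 higher and 3 lower in the test of all windows, but 358 higher and 430 lower when tested alone. Among windows of matched length the largest rises were at CASS4, a scaffold of focal adhesions (8.59 and 9.10 CPM to 19.1 and 32.9 CPM, 1.47 ± 0.23), GDF5, FBP1, a gluconeogenic enzyme (1.11 ± 0.13), COL14A1 (37.0 and 41.6 CPM to 86.2 and 81.5 CPM, 1.06 ± 0.11) and TEKT5 (1.02 ± 0.15). MEG3, an imprinted long noncoding RNA, rose from 35.0 and 41.0 CPM to 65.1 and 87.6 CPM (0.96 ± 0.11), and C1H6orf183, LAMA4, DAB2 and SUGCT rose by 0.87 to 0.95. When windows held only regions of matched length, GDF5, FBP1, MEG3, DAB2 and SUGCT still passed, while COL14A1 (0.57, edgeR adjusted p = 0.0649), C1H6orf183 (0.41, 0.142), LAMA4 (0.22, 0.430) and TEKT5 (-0.05, 0.921) did not, and CASS4 had no value. Of the 3 that were lower, 2 were of named genes, RAB27A, a GTPase of secretory vesicles (32.5 and 26.0 CPM to 18.3 and 14.0 CPM, -0.89 ± 0.12), and SALL4 (-0.84 ± 0.12). With regions of matched length alone SALL4 passed (-0.93, edgeR adjusted p = 0.0119) and RAB27A did not (-0.04, 0.921). NAGS, PCDH20, AEBP1, NIM1K, FHDC1, SYCE1L, LOXL3 and TMEM215 came next, with edgeR adjusted p from 0.0543 to 0.0712 and log2 estimates of -0.91 to -0.62.

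Within the lists the windows of CHRNA1 (10.9 and 14.0 CPM to 26.8 and 44.4 CPM, 1.45 ± 0.15, edgeR adjusted p = 0.0305) and MUSK (0.82 ± 0.13, 0.0496) rose. The CHRNA1 window contains the element described above. With regions of matched length alone 0 of 8 windows of that list passed, with CHRNA1 at 1.11 (edgeR adjusted p = 0.0730) and MUSK at 1.05 (0.0575). MET, the receptor of migrating muscle precursors, rose by 0.74 ± 0.11, FBN1 (fibrillin-1) by 0.63 ± 0.10 and PHEX, a bone gene, by 2.17 ± 0.27, all with called lengths that changed by more than 1.5 times; the MET estimate was -0.05 with regions of matched length alone. Windows that fell with shortened called length included those of MYBPC3, the cardiac myosin-binding protein C (39.0 and 34.3 CPM to 5.47 and 2.23 CPM, beside 4.56 and 5.27 kb called at E21 and 1.40 and 0.720 kb at E28), CLDN6 (-1.84 ± 0.13), WNT3A (-1.67 ± 0.21), LIN28A (-1.53 ± 0.14), EDNRB (-1.11 ± 0.13), SOX18 (-1.02 ± 0.14), TIE1 (-1.0 ± 0.14), WNT7A (-0.99 ± 0.12), FOXP4 (-0.97 ± 0.12), DLL1 (-0.94 ± 0.14), WNT3 (-0.89 ± 0.12) and HHIP (-0.83 ± 0.10). At TIE1 a region of matched length 2.94 kb before the gene rose instead, from 3.97 and 2.04 CPM to 8.44 and 14.0 CPM (1.75 ± 0.33). The medians of the neuron, neural progenitor and early embryo windows were -0.71, -0.58 and -1.08, against -0.01 over all windows. With regions of matched length alone these medians were -0.33, -0.47 and -0.42, against 0.00. The window of RHOB, a small GTPase, did not pass (0.14 ± 0.10, edgeR adjusted p = 0.457). Its regions of matched length went both ways. Of 8 assigned to RHOB, 1 was higher (0.95 ± 0.33) and 3 were lower (-0.76 ± 0.27, -0.9 ± 0.33 and -1.0 ± 0.34). All regions of matched length had 7.88% higher and 4.84% lower.

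**Figure D4:**
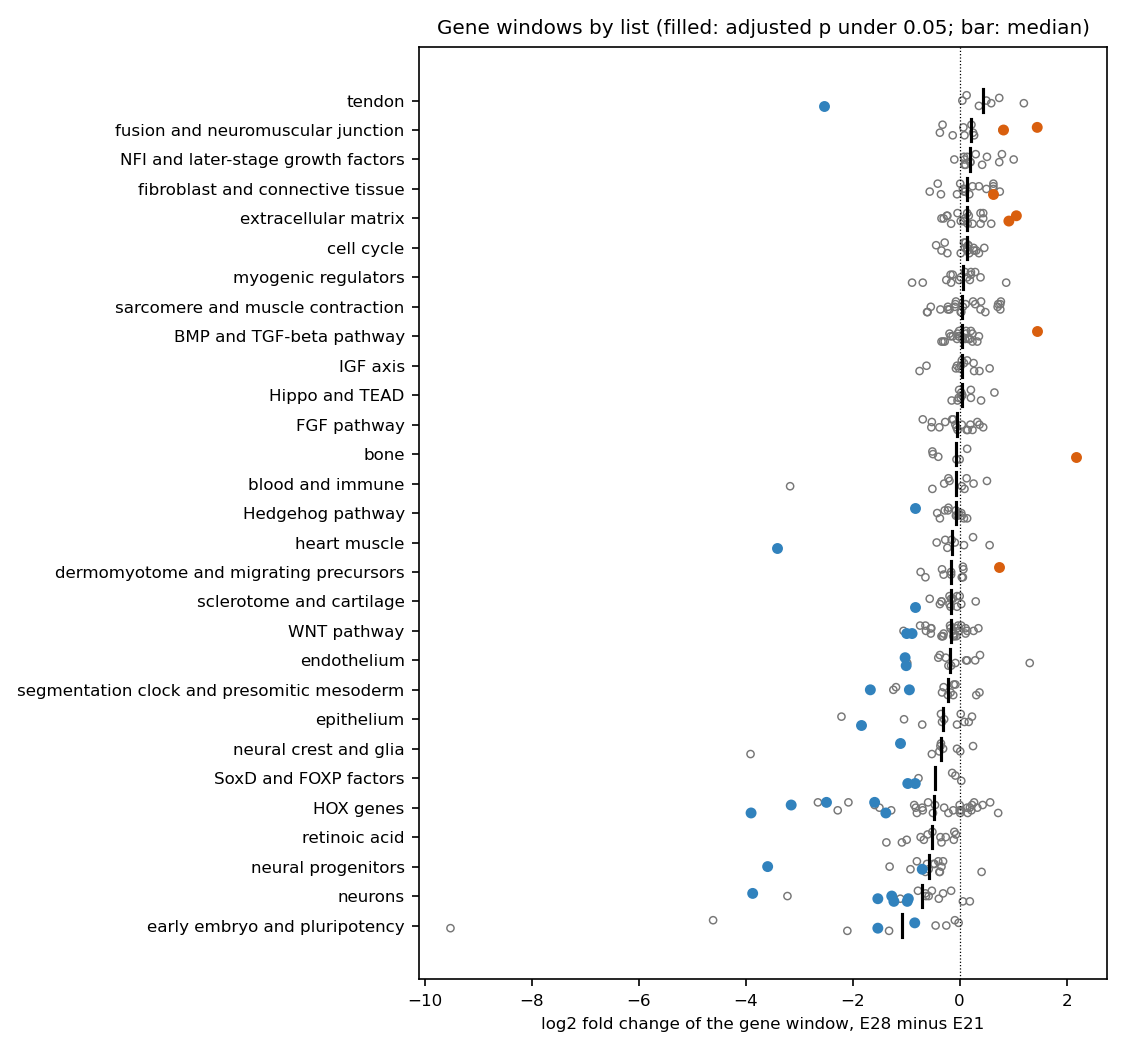
Log2 fold change of each gene window, E28 minus E21, by gene list, with open circles for windows that missed an edgeR adjusted p of 0.05, filled circles for windows that passed (orange higher, blue lower) and a bar at the list's median. Neuron windows have a median of -0.71 and 6 of 18 filled circles, while CHRNA1 and MUSK are the filled circles of the fusion and junction list.

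Some regions had peaks at 1 stage only. There were 38570 regions with a peak in both E21 libraries and neither E28 library, and 7553 with the reverse, beside fewer counts and fewer called peaks in both E28 libraries. Counting only peaks that were open in 1% or more of the barcodes, the numbers were 14789 and 7392. E21-only regions were weak, with median levels of 1.06 and 0.919 CPM, and 73.6% of them had a peak in both E18 libraries. E28-only regions had median levels of 1.36 and 1.98 CPM, and 87.2% had no peak in either E18 library. The E18 libraries had the most called peaks of the series (217138 in ZZ and 199846 in DZ). The share of all regions with an E18 peak was not counted. The strongest E28-only regions lay in introns of DOCK6 (12.7 and 18.7 CPM), MERTK, a receptor kinase for dying cells (14.0 and 12.3 CPM), and SLC35F1 (12.3 and 23.5 CPM), 9.72 kb before COL15A1, a collagen of basement membranes (12.5 and 14.6 CPM), and over the start of AGBL1 (11 and 23.1 CPM). All 5 were listed at 0 in both E21 libraries. The strongest E21-only regions lay over the start of CLEC18C (20.9 and 14.8 CPM), in introns of URM1 (17.3 and 11.8 CPM) and OSBPL6 (15.1 and 11 CPM), and before OLFM4 (18.6 and 13.3 CPM) and GLRA1 (15.2 and 12 CPM). All 5 were listed at 0 in both E28 libraries and were open in both E18 libraries.

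Among regions of matched length, those that rose lay away from promoters and those that fell lay closer to them. Of the higher regions of matched length 3.29% were within 2 kb of a gene start, against 22.8% of all regions of matched length and 34.4% of the lower ones. The position of the lower regions turned in the test of all regions. There 2.28% of the higher and 5.34% of the lower regions were within 2 kb of a start, against 13.3% of all. Among E21-only regions the share was 1.38%. Introns held 43.9% of the higher regions (95% exact binomial interval 42.2 to 45.6), 31.8% of all and 22.4% of the lower (20.6 to 24.2). Distal sequence held 39.9% of the higher regions (38.3 to 41.6), 29.6% of all and 23.4% of the lower (21.6 to 25.3), and exons 12.3% (11.2 to 13.4), 30.2% and 41.6% (39.5 to 43.8). Many of these exons lie at promoters. With promoters ranked first, exons held 9.29%, 10.9% and 13.2% and promoters 4.83%, 25% and 37.5% of the higher, all and lower regions. These intervals cover counting error only. Levels moved with the same split, since the median of the higher regions was 2.91 and 3.29 CPM at E21 and that of the lower regions 23.0 and 20.9 CPM. At E28 the medians were 7.66 and 9.0 CPM in the higher, 7.28 and 7.02 CPM in all and 16.4 and 12.4 CPM in the lower regions. The lower regions thus fell but stayed open. GC content moved with the split too, with medians of 46.0% in the higher, 52.3% in all and 60.0% in the lower regions. The part of level and GC content in the position of the calls was not tested.

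Sequence motifs were counted in the central 300 bases on both strands. The E-box CAGCTG, the form bound by MYOD1 and MYOG, was present in 33.4% of the higher regions of matched length, 24.8% of all and 23.1% of the lower. The share was larger among the higher regions in each of 4 equal groups of GC content (24.4% against 20.2%, 36.8% against 28.7%, 47.2% against 30.3% and 38.3% against 20.4%, from low to high GC). It was not larger among the 2630 higher regions of the test of all regions (23.5% against 25.4%), nor among E28-only regions (22.5%). The related E-box CAGGTG was present in 19.4%, 22.6% and 21.4% of the higher, all and lower regions. Within the muscle lists 10 of the 23 higher regions held CAGCTG, 3 of 4 for myogenic regulators, 4 of 12 for sarcomere genes and 3 of 7 for fusion and junction genes.

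Other motifs differed between the higher and lower regions of matched length, in part along with GC content. ACATTCC (TEAD) was present in 8.94%, 5.75% and 4.78% of the higher, all and lower regions, TGTGGTT (RUNX) in 7.92%, 5.32% and 3.41%, and CTATTTATA or CTAAAAATA (MEF2) in 1.72%, 1.01% and 0.663%. TEAD and RUNX were also more frequent in the higher than in the lower regions in each of the 4 groups of GC content, while MEF2 was not in the lowest (2.07% against 2.18%) and highest groups. The GATA factor motif AGATAA was present in 12.8%, 9.90% and 6.96%, but within the 3 lower groups of GC content the higher and all regions were close (18.0% and 18.9%, 10.3% and 11.7%, and 7.03% and 6.69%). TGATNNAT (HOX-PBX) was present in 16.8%, 11% and 9.57%, but the order of higher and lower regions turned in the same 3 groups (24.4% and 28.4%, 14.3% and 20.8%, and 6.41% and 7.52%). TAATTA (homeodomain) was present in 5.50% of the higher and 4.55% of the lower regions, TGTTTAC (forkhead) in 3.73% and 2.70%, CCTTTGT (SOX) in 6.64% and 6.63%, and TGACTCA (AP-1) in 4.34% and 4.88%. Within the 3 lower groups of GC content homeodomain was less frequent in the higher than in the lower regions (7.68% and 15.3%, 5.30% and 7.23%, and 1.56% and 4.14%), and so was SOX (6.81% and 9.17%, 6.76% and 9.54%, and 6.25% and 7.82%). Forkhead was less frequent in the higher regions in the lowest and the third group (3.60% and 4.80%, and 3.75% and 3.99%). In the test of all regions SOX was present in 6.08% of the higher and 10.6% of the lower regions. The spaced NFI site was found in 0.0873% of the higher and 0.0872% of all regions. A match of letters is a description of the sequence and not a bound site.

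**Figure D5:**
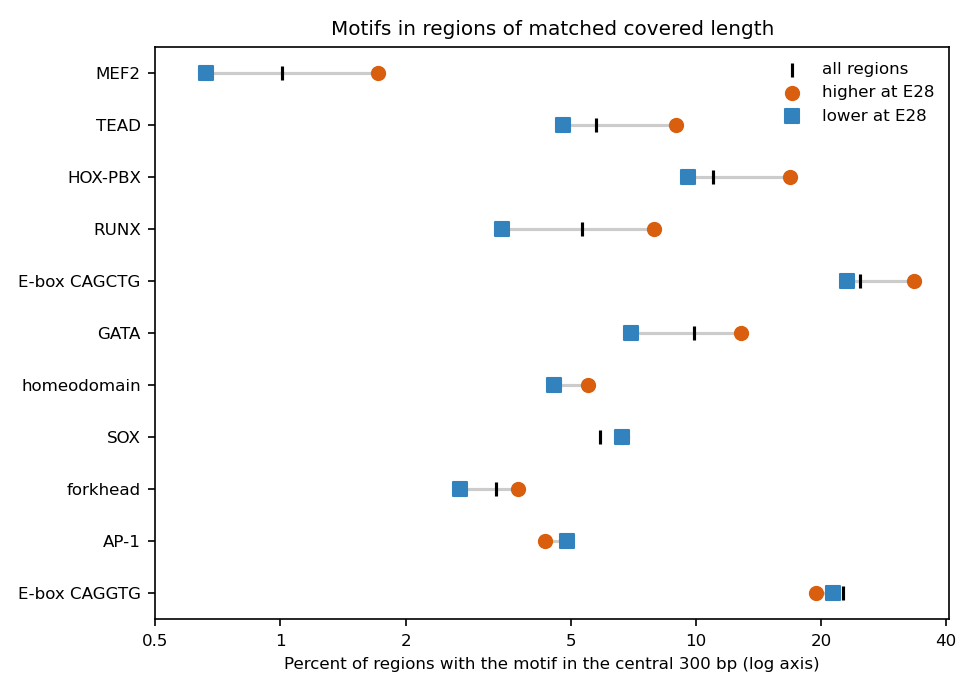
Percentage of regions of matched length whose central 300 bases hold each motif (log axis), for regions higher at E28 (orange circles), lower at E28 (blue squares) and all regions (black ticks), ordered by the ratio of higher to all. CAGCTG lies at 33.4%, 24.8% and 23.1% in the higher, all and lower regions.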

How the data were processed

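Single-cell ATAC-seq libraries of pig somite and myotome were analysed. The authors aligned reads to Sscrofa11.1 with Cell Ranger ATAC 1.2.0, called peaks in each library and used Signac 0.2.2 and Seurat 3.1.1; the deposited matrices hold raw counts of cut sites per peak and barcode, with no normalization. Counts of barcodes with 2000 to 30000 counts were summed per peak, and no doublet caller was run. Peaks of the 4 libraries overlapping by at least 1 bp were merged with bedtools 2.31.1. A region without a called peak in a library is listed at 0 there, so regions were tested only where all 4 libraries had a peak. Totals of 89816504 to 109989839 counts set the counting precision, and the library number limits the rest.

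Regions, and windows of gene body plus 2 kb upstream, were tested with edgeR 4.0.16 (R 4.3.3; quasi-likelihood, TMM, filterByExpr, stage and breed as terms, Benjamini-Hochberg adjusted p under 0.05), and DESeq2 1.42.0 was an alternative. SE was derived from the fold change and F statistic. 1 residual degree of freedom remained. Genes came from RefSeq Sscrofa11.1 (25842 genes), with regions assigned to an overlapping gene or the nearest start within 100 kb. Elements were ranked exon, promoter, UTR, intron, distal. Named regions and windows were the 10 largest rises and falls of matched length (1.5 times) past the threshold with the same sign in both breeds, filled up by lowest p; 1-stage regions were the 5 highest per stage; list windows were up to 4 past the threshold plus PAX3, PAX7, MYF5, MYOD1, MYOG, EGR1, RHOB, SOX6 and MEIS1. Other list regions shown were picked after their values were seen. Members and gene lists were chosen with earlier results of these data known. Alternatives were normalization, tool, count filter, breed term, 6 libraries, barcode limits, called length as an offset or matched, peaks in both libraries of 1 stage, and each library left out (no breed term then). Those on matched regions alone, except the test itself, were added after seeing the data. The tests were tested on simulated data with a fixed spread, smaller than the spread estimated in these libraries. How they perform at the estimated spread was not tested. No cell types were called and RNA data were not used. 1 further motif is not reported here.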

Additional observations from a re-analysis of the deposited data

Results flagged for a closer look

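The breeds moved in opposite directions from E21 to E28 at 1 named window and at 4 called regions of the gene lists. The named regions and the windows with the largest changes had been chosen for the same direction in both breeds and could not enter this count. The log2 ratio of the PAX7 window was -0.53 in ZZ and 0.10 in DZ, a gap of 0.63 (DZ minus ZZ). At the start of COL2A1 the ratios were 0.19 and -0.64 (gap -0.83), at HOXA2 -0.74 and 0.13 (0.88), at WNT5A 0.02 and -0.38 (-0.40) and at RSPO2, a WNT agonist, 0.45 and -1.79 (-2.24). The differences were not tested, since each stage and breed had 1 library.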

How the results depend on the processing

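Leaving out 1 library at a time (no breed term) gave 0 to 16135 called regions in the test of all regions, 54 to 3831 called windows and 324 to 7669 called regions of matched length. DESeq2 called 13254 regions, 6532 windows and 3581 regions of matched length. Without the breed term 0 regions (21332 at an unadjusted p under 0.05), 300 windows and 3314 regions of matched length were called by edgeR. With 6 libraries these were 0 (22217 unadjusted), 1403 and 0 (8766 unadjusted). Requiring a peak in both libraries of 1 stage called 0 regions (21710 unadjusted). With the log of called length as an offset, which moves the median log2 change to 0.32 over regions and 0.33 over windows, 25086 regions (23234 higher) and 9468 windows (9308 higher) were called. Other window counts were 369 without TMM, 187 for 2 kb upstream alone and 350 for regions of matched length alone. Called lengths within 1.2 times left 18643 regions and 2022 calls, 1231 higher. Of these, 1485 were also among the 5546. E21-only regions fell to 14789 with peaks open in at least 1% of barcodes. The split of calls among regions of matched length was 3435 higher and 2111 lower, against 250 and 74 without E21 ZZ and 966 and 214 without E21 DZ.

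The 20 named regions kept their direction in all 280 refits, which the choice of these regions favours, and 101 of the refits missed the threshold. Of the refits of named windows 30 turned the sign. With the length offset these were PAX3 (0.24), PAX7 (0.32), MEIS1 (0.47), SOX5 (0.29), EGR1 (-0.14), TIE1 (0.17), SOX18 (0.67), ELAVL4 (0.28), NEUROG1 (0.02), CHAT (0.02), GAD2 (0.29), HOXA4 (0.44), HOXC10 (0.01), HOXD3 (0.10), LIN28A (0.12), HHIP (0.59), WNT3 (0.17) and WNT7A (0.11), most below the shift of all windows. With 2 kb upstream alone they were FBP1 (-1.16), PAX7 (0.28), MEIS1 (0.11), HOXC10 (0.88) and the window of RHOB (-3.71). With regions of matched length alone they were TEKT5 (-0.05), MET (-0.05), SOX6 (-0.05) and WNT3 (0.24). SOX6 also turned with windows of matched length alone (-0.08), without E21 ZZ (-0.03) and without E28 DZ (-0.07). The cause of these changes was not tested.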

Other observations

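Some long genes gathered several higher regions. Chosen after their values were seen, NAV3, a microtubule-associated neuron navigator, had 8 higher and 0 lower of 21 regions of matched length, and DNM3, a dynamin, had 7 higher and 0 lower of 19. RBMS3, an RNA-binding protein of connective tissue, had 6 higher and 1 lower of 26, FAT3, an atypical cadherin, 6 higher and 3 lower of 21, and CREB5, a transcription factor, 6 higher and 1 lower of 17. SYNE1, the nuclear envelope protein nesprin-1 of muscle, had 4 higher and 0 lower of 12. At the other end CXXC5, a zinc finger protein, had 5 lower and 0 higher of 6, NRP2, a receptor for semaphorins and VEGF, 4 lower and 1 higher of 10, and IGFBP2, a binding protein of insulin-like growth factors, 3 lower and 0 higher of 4. Against these, 7.88% of all regions of matched length were higher and 4.84% lower.

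Immediate early genes and NFI genes formed another group. The list of NFI, KLF and AP-1 genes, which also holds EGR1 and RHOB, had 13 higher and 5 lower of 87 regions. RHOB gave 1 of the higher and 3 of the lower regions, described above. The higher EGR1 region is the same as that counted in the tendon list. All regions of matched length had 7.88% higher and 4.84% lower. The median log2 change was 0.09 over the list's regions and 0.20 over its windows. Without E21 ZZ, E21 DZ or E28 DZ fewer of its regions were higher past the threshold, as were fewer of all regions. The median was then 0.06 without E21 ZZ, 0.16 without E21 DZ and 0.06 without E28 DZ. Regions over the starts of FOS (93.4 and 90.2 CPM at E21, 135 and 225 CPM at E28, 0.75 ± 0.11), FOSB (108 and 90.3 CPM to 150 and 203 CPM, 0.65 ± 0.11) and JUN (129 and 128 CPM to 170 and 207 CPM, 0.37 ± 0.11), all subunits of AP-1, were higher in both E28 libraries, more in DZ. These genes respond quickly to handling of tissue, and the part of dissociation was not tested. The AP-1 motif TGACTCA was present in 4.34% of the higher and 4.85% of all regions of matched length. An intron of NFIX rose from 2.09 and 1.56 CPM to 4.90 and 7.26 CPM (1.55 ± 0.34), and a second NFIA intron from 11 and 16.6 CPM to 24.9 and 21.8 CPM (0.61 ± 0.21), while a region 92 kb before NFIA fell from 11.2 and 6.23 CPM to 4.94 and 4.95 CPM (-0.93 ± 0.32).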
